A study of Drosophila melanogaster with 20 samples.

Results

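The subject is a set of 17 Drosophila melanogaster transcripts, of 15473 on the array, that were bright in the larval wing, dim in the pupal wing, and whose mean level differed little between control wings and wings expressing activated Thickveins (Tkv). A member had a normalized log2 intensity of at least 9 on all 5 larval control arrays and of at most 7 on all 5 pupal control arrays. Its mean in Tkv wings lay less than 0.6 from its control mean at each stage. The first 2 conditions alone were met by 20 transcripts, called switch-off transcripts here (0.129% of those on the array), and 3 of them failed the last one. The members were chosen by these measured levels and differences, which are therefore given as a description. Counts of members called on these differences are printed for completeness beside the share of all transcripts, and support nothing.

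The study placed total RNA of 10 dissected wings on each of 20 single-dye NimbleGen arrays, in 4 groups of 5. Control wings carried no UAS transgene and came from the matched strain, either as wandering larvae of the 3rd instar or as pupae 24 h after pupa formation. Tkv wings of the same stages expressed UAS-activated thickveins. All animals were grown at 18 °C and moved to 28 °C for 10 h before dissection, the controls included, and pupae were timed from white prepupae. The Gal4 driver, and so the cells that expressed the transgene, is not named in the labels. Any other difference between the strains cannot be told apart from the transgene. The 5 slides held 1 array of every group each, and the slide followed the replicate number.

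Tkv is a type I receptor of the BMP family. It binds the ligand Decapentaplegic and leads to phosphorylation of the transcription factor Mad, which enters the nucleus and, among other effects, lowers transcription of the repressor gene brinker. In the larval wing disc this signal directs growth and the pattern along the anterior-posterior axis, and in the pupal wing it takes part in vein formation. Between these stages pulses of the steroid ecdysone turn the folded epithelial disc into a flat wing of 2 epithelial layers, and many larval transcripts are lost. A larval disc also holds tissue that does not form the wing blade, such as precursors of the notum and of flight muscle.

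The files name transcripts by FlyBase transcript ID only, and none of the 17 members, nor of the 20 switch-off transcripts, could be matched to a gene in the RefSeq table used here. The members are therefore described by ID, with no gene name or function. Whether some of them come from the same gene is not known here. For the same reason the labelled tissue could not be checked against defining markers. In bulk RNA, fewer cells of a type and less RNA per cell cannot be told apart, and differences in the cells that larval and pupal dissections held cannot be told apart from a change within cells.

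Members were of middling brightness in the larva and dim in the pupa, though seldom at the lowest levels of the array. Their mean log2 intensity was 9.14 to 11.01 in larval controls, with a median over members of 9.82, and 4.80 to 6.63 in pupal controls, with a median of 6.20. By mean level they occupied the 48.8 to 60.5 percentile of all transcripts in larval controls and the 6.46 to 35.1 percentile in pupal controls. None reached 12.37, the median larval control level of the 7760 other transcripts that were at least 9 on all larval control arrays. In pupal controls 15 of the 17 lay above 5.22, the median of the 5048 other transcripts that were at most 7 on all pupal control arrays. The 2 below it were FBtr0075665 and FBtr0079194. The falls of the members spanned 7.90-fold to 33.5-fold in control wings, and 8 of the 17 were at least 16-fold. All 17 were called lower by limma, as the rule makes them, where 20.8% of all transcripts were called lower and 40.6% in either direction. RMA, the summary method named by the submitters, compresses values near the background, so falls that end there are likely to be too small.

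**Figure D1:**
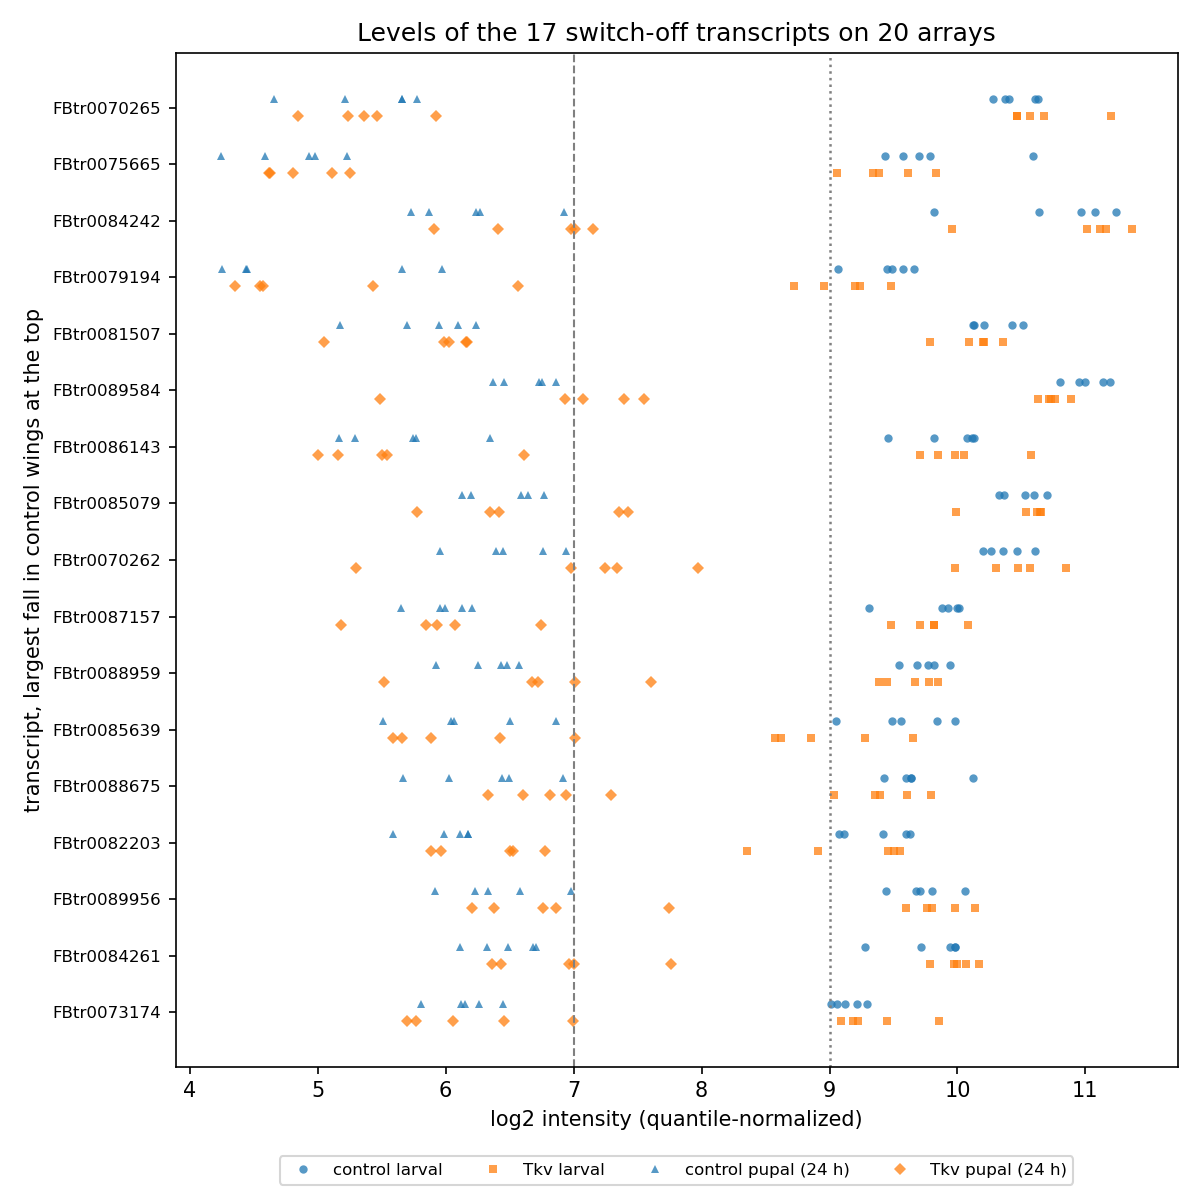
Normalized log2 intensity (horizontal axis) of each of the 17 members (rows, ordered by the fall in control wings) on all 20 arrays. Blue points are control and orange points Tkv arrays, circles and squares larval, triangles and diamonds pupal. The dashed line at 7 and the dotted line at 9 are the limits of the rule for control arrays. No larval point overlaps a pupal point of the same transcript, and several orange pupal points lie above 7.

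The member with the largest fall was FBtr0070265. Its log2 intensities were 10.37, 10.40, 10.28, 10.63 and 10.61 in larval controls (replicates 1 to 5) and 5.21, 4.66, 5.78, 5.66 and 5.66 in pupal controls. Its log2 fall in controls was -5.07 ± 0.21 (SE of the limma fit, n = 5 per group), or 33.5-fold. In Tkv wings it stood at 11.20, 10.47, 10.46, 10.57 and 10.67 in larvae and at 5.24, 4.85, 5.93, 5.46 and 5.37 in pupae. Larval replicate 1 was the high Tkv array, and control and Tkv values overlapped at each stage.

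FBtr0075665 reached the lowest pupal mean of the set. Pupal controls gave 4.93, 4.59, 5.23, 4.98 and 4.25, and pupal Tkv wings 4.80, 5.25, 5.11, 4.62 and 4.63. Larval controls gave 9.79, 9.43, 9.70, 10.59 and 9.57, with replicate 4 the high array, and larval Tkv wings 9.34, 9.06, 9.61, 9.83 and 9.39. On every slide the larval Tkv value was the lower of the pair, by 0.09 to 0.75 on the log2 scale, while the groups as a whole overlapped.

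FBtr0084242 varied among larval arrays more than any other member in the control group. It was at 9.82 in replicate 1 and at 11.24, 10.97, 11.08 and 10.64 in replicates 2 to 5 of the larval controls, and the larval Tkv arrays repeated this shape with 9.96, 11.36, 11.16, 11.11 and 11.02. Replicate 1, which shared a slide in both genotypes, was thus the low array in each. In the pupa the controls stood at 6.23, 6.27, 5.87, 5.73 and 6.92 and the Tkv arrays at 6.41, 5.91, 7.01, 6.98 and 7.15, again with overlap.

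FBtr0079194 was uneven in the pupa. Pupal controls split into 5.66 and 5.97 (replicates 1 and 4) and 4.44, 4.25 and 4.45 (replicates 2, 3 and 5), and pupal Tkv arrays gave 5.43, 4.55, 6.57, 4.57 and 4.36. The high arrays were replicates 1 and 4 in controls and 1 and 3 in Tkv wings. Its SD of 0.80 in pupal controls was the largest of the 17. Larval values were 9.45, 9.49, 9.07, 9.58 and 9.66 in controls and 9.24, 9.20, 9.48, 8.96 and 8.72 in Tkv wings.

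FBtr0089584 was the brightest member in larval controls, and FBtr0081507 had the fifth largest fall. FBtr0089584 stood at 11.14, 10.80, 10.99, 11.19 and 10.95 in larval controls and at 6.75, 6.86, 6.73, 6.37 and 6.45 in pupal controls, a 20.8-fold fall. Its pupal Tkv values were 6.93, 5.49, 7.07, 7.55 and 7.39, with replicate 2 below and 4 arrays above every pupal control. FBtr0081507 fell 21.8-fold in control wings, from a mean of 10.28 ± 0.18 to 5.83 ± 0.42 (SD, n = 5), and in Tkv wings from 10.13 ± 0.21 to 5.88 ± 0.47.

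The remaining 11 members fell 7.90-fold to 19.1-fold in control wings. FBtr0086143, FBtr0085079, FBtr0070262 and FBtr0087157 fell 19.1-fold, 16.4-fold, 14.7-fold and 14.3-fold. A group of 6 transcripts lay close together, from FBtr0088959 at 10.7-fold through FBtr0085639, FBtr0088675, FBtr0082203 and FBtr0089956 to FBtr0084261 at 9.95-fold. FBtr0073174 had the smallest fall, from 9.14 ± 0.12 to 6.16 ± 0.23 (SD, n = 5), and was also the dimmest in larval controls.

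The limits of the rule cut through a continuous range. Just inside the larval limit, FBtr0073174 had a lowest control value of 9.01 and FBtr0085639 one of 9.05, while FBtr0070688 and FBtr0083785 met every other condition with 8.98 and 8.85. Just inside the pupal limit, FBtr0089956 reached 6.98 and FBtr0070262 6.94 on a control array, while FBtr0100281 and FBtr0085029 were left out at 7.002 and 7.03. For the Tkv difference the nearest members were FBtr0085639 at -0.59 in larvae and FBtr0088675 and FBtr0084242, each at 0.49 (0.486 and 0.485), in pupae. Large falls were not peculiar to the set, since 68 transcripts fell in controls by at least the members' median of 3.88 on the log2 scale, and 9 of those were members.

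Membership rested heavily on a single array. Replicate 1 of the pupal controls alone kept 21 transcripts from being switch-off, against 0 to 7 for each other control array. By this choice the 21 were above 7 on that array and at most 7 on the other pupal control arrays. Their median was 7.33 on that array and 6.17 to 6.56 on the other pupal control arrays. On the pupal Tkv arrays it was 6.26 to 6.74, with 6.74 on the array of the same slide and 6.71 in replicate 4. FBtr0086982, the one with the largest fall, was at 7.54 in replicate 1 of the pupal controls and at most 5.62 on the other 4 pupal controls. Of the 21, 18 met the limit on the Tkv differences. Without that array 32 transcripts met the full rule, all 17 members among them. The count was also 32 without all arrays of replicate 1 (15 of the members among them), 26 without those of replicate 4 (all 17), and 13 without those of replicate 2 (11 of the members).

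The Tkv arrays took no part in the 2 conditions on control levels, so whether switch-off transcripts also fell in Tkv wings could be tested for all 20 of them, before the condition on the Tkv difference. All 20 fell from larva to pupa in Tkv wings (limma, Benjamini-Hochberg adjusted p from 1.39e-13 to 9.39e-08 over all transcripts), where 20.5% of all transcripts were called lower. The limma SE shares 1 spread per transcript over all 4 groups, the control arrays included. The conditions on control levels hold the control spread down, so these p-values are not fully independent of the choice and may be too small. The median log2 change of the 20 was -3.64 in Tkv wings and -4.05 in control wings, and over all transcripts it was -0.04 in each. For all 20 the lowest larval Tkv value lay above the highest pupal Tkv value, which held for 14.1% of all transcripts. Every transcript that met the control conditions also fell in Tkv wings when replicate 1 was left out, 43 of 43. The share of all transcripts called lower in that fit is not given here. Both Tkv differences were below 0.6 for 90.3% of all transcripts. A transcript chosen for a large control fall was therefore likely to fall in Tkv wings too.

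**Figure D2:**
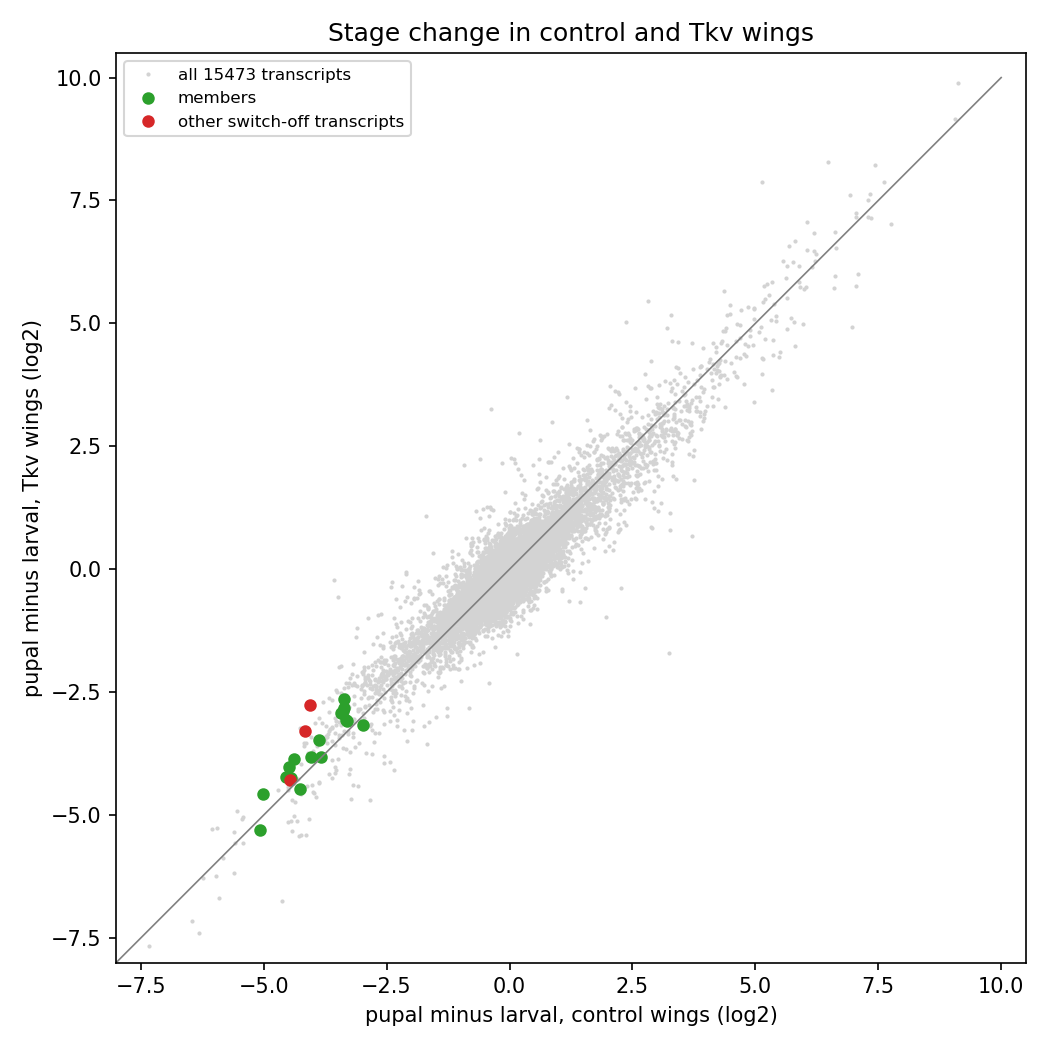
Log2 change from larva to pupa in control wings (horizontal axis) and in Tkv wings (vertical axis) for all 15473 transcripts (grey), the 17 members (green) and the other 3 switch-off transcripts (red), each point a difference of group means of 5 arrays. The line marks equal changes. The members lie at -2.98 to -5.07 in controls and at -2.64 to -5.31 in Tkv wings, near the line where the rule confined them.

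Among the 17 members the fall in Tkv wings was 6.24-fold to 39.6-fold, and it was at least 16-fold for 6 of them. The rule kept the Tkv means under 0.6 from the control means, so each member's mean was bound to fall in Tkv wings. These falls, and those on single slides, are a description. On every one of the 5 slides each of the 17 was lower in the pupal than in the larval Tkv wing, by 1.75 to 5.96 on the log2 scale. The log2 fall was smaller in Tkv than in control wings for 14 members and larger for FBtr0070265, FBtr0086143 and FBtr0073174. The choice of members by low pupal and high larval control values favours that direction, and nothing is read from it.

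Single Tkv arrays were not held to the limits of 9 and 7, only their means were tied to the control means. On all 5 larval and all 5 pupal Tkv arrays 6 members kept to both limits, FBtr0070265, FBtr0075665, FBtr0081507, FBtr0086143, FBtr0087157 and FBtr0073174, as did 0.136% of all transcripts. Larval values under 9 were few, 7 of 85, and came from 3 members. FBtr0085639 was at 8.62, 8.85 and 8.57 in replicates 1, 4 and 5, FBtr0082203 at 8.35 and 8.91 in replicates 1 and 2, and FBtr0079194 at 8.96 and 8.72 in replicates 4 and 5. Pupal values above 7 were more frequent, 17 of 85, and came from 9 members.

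The 17 pupal Tkv values above 7 were spread unevenly over the arrays. There were 1, 0, 5, 7 and 4 of them in replicates 1 to 5. The median of the 17 members was 6.41, 5.66, 6.60, 6.50 and 6.72 on these arrays, against 6.20, 6.27, 6.0, 6.12 and 6.07 in pupal controls. Replicate 2 thus lay below every pupal control array, and the other 4 Tkv arrays above every one. The limit of 7 on every pupal control value favours lower control medians, and single Tkv arrays had no such limit. In larval wings the medians were 9.79, 9.94, 9.77, 10.06 and 9.98 in controls and 9.80, 9.78, 9.85, 9.85 and 9.82 in Tkv wings, and these overlapped.

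**Figure D3:**
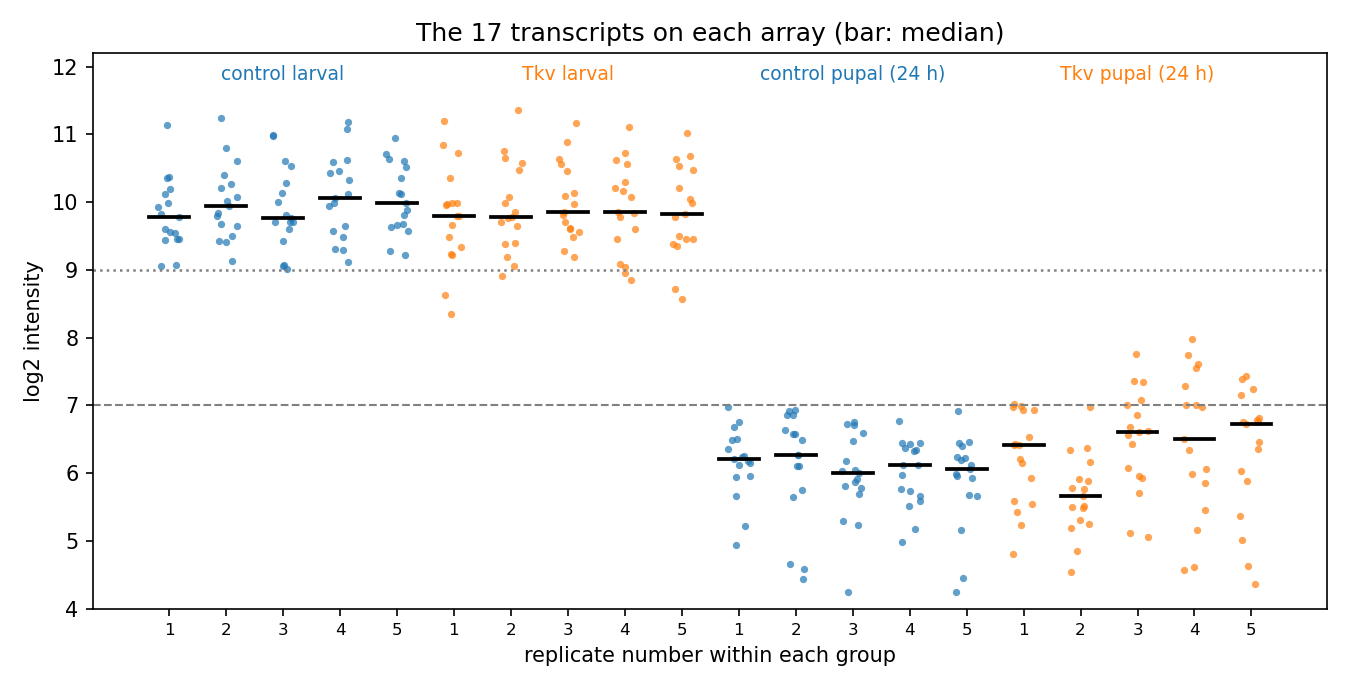
Normalized log2 intensity (vertical axis) of the 17 members (points) on each of the 20 arrays, by group and replicate number, with the median of the 17 as a black bar. The dashed and dotted lines mark 7 and 9. The medians of the pupal Tkv arrays range from 5.66 in replicate 2 to 6.72 in replicate 5, while those of the pupal controls stay between 6.0 and 6.27.

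Replicate 2 of the pupal Tkv wings gave the lowest of the 5 pupal Tkv values for 9 members and the highest for 2. That array also had the lowest median of all transcripts as deposited, 9.19 against 9.30 to 9.59 on the other 19 arrays, a gap that quantile normalization removes. After normalization its median absolute log2 difference from the other pupal Tkv arrays was 0.26 to 0.34 over all transcripts, against 0.23 to 0.26 among those 4. These ranges overlapped slightly, with 0.2635 between replicates 2 and 3 and 0.2647 between replicates 3 and 4. The part of these array differences in the members' low values was not tested. The spread among pupal Tkv arrays was larger than among pupal controls for 14 members, with median SDs of 0.56 and 0.38, but a limit of 7 on every control array holds the control spread down and the Tkv spread had no such limit.

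The mean differences between Tkv and control wings, which the rule limited, were as follows. In larval wings they ran from -0.59 to 0.22 with a median of -0.04 and SEs of 0.20 to 0.37, and 7 were above 0. None of the 17 passed the limma test there, and none had an unadjusted p under 0.05, where 1.40% of all transcripts passed. In pupal wings the differences ran from -0.10 to 0.49 with a median of 0.20, and 13 were above 0. The limma test called none of the 17, where 3.16% of all transcripts passed, and only FBtr0088675 fell under an unadjusted p of 0.05. The limit on pupal control values favours differences above 0, by an amount that was not estimated. For the interaction, the pupal minus the larval difference, limma called none of the 17, where 0.679% of all transcripts passed, and for 1 member the unadjusted p was below 0.05. The rule used these contrasts, and nothing is read from these counts, which also changed when 1 pupal Tkv array was left out. With SEs of this size the data do not show that any member was equal in the 2 genotypes.

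The small pupal differences of several members depended on replicate 2 of the pupal Tkv wings. Without that array the median pupal difference of the 17 members was 0.42 in place of 0.20, 14 were above 0, and 5 reached the limit of 0.6. These 5 were FBtr0070262 (0.88), FBtr0084242 (0.68), FBtr0088959 (0.67), FBtr0089584 (0.603) and FBtr0088675 (0.601), all log2 differences. Leaving out any other single pupal Tkv array brought no member to the limit, and the medians were then 0.15 to 0.24. In the fit without pupal Tkv replicate 2 limma called 3 of the 17 members for the pupal difference (FBtr0070262, FBtr0088959 and FBtr0089584) and FBtr0089584 for the interaction, where 3.16% and 0.692% of all transcripts were called. Without all 4 arrays of replicate 2, FBtr0070262 and FBtr0089584 were called for the pupal difference, where 2.44% of all transcripts were called. The members were chosen on this difference and the array was left out after its low values had been seen, so these calls are no test of a response. For these 3 members the absence of a call depended on 1 array, and the other members stayed uncalled without it. No member was called when any other replicate number, pupal Tkv array or pupal control array was left out.

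FBtr0070262 had the largest shift of this kind. Its pupal Tkv values were 6.98, 5.30, 7.34, 7.97 and 7.25, with the largest SD of any member in that group, 1.0. Its pupal controls stood at 5.96, 6.94, 6.76, 6.45 and 6.40. Replicate 2 was the highest of the controls and the lowest of the Tkv arrays, so the difference on that slide was -1.64 while the other 4 slides gave 0.58 to 1.52. In larval wings it did not separate the genotypes, with 10.20, 10.26, 10.61, 10.47 and 10.35 in controls and 10.85, 9.98, 10.56, 10.30 and 10.47 in Tkv wings.

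FBtr0088675 had the largest mean pupal difference of the members, 0.49 ± 0.21 (SE). Its pupal values were 6.50, 6.92, 6.03, 6.44 and 5.67 in controls and 6.94, 6.33, 6.60, 7.29 and 6.81 in Tkv wings, higher in Tkv on 4 of 5 slides. Its larval values were 9.60, 9.64, 9.43, 9.64 and 10.12 in controls and 9.79, 9.39, 9.61, 9.04 and 9.36 in Tkv wings, which overlapped. FBtr0084261 was higher in Tkv on 4 of 5 slides in the pupa, by 0.44 ± 0.21 (SE) on average, and on 5 of 5 in the larva, by 0.22 ± 0.21.

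The largest larval difference belonged to FBtr0085639, at -0.59 ± 0.29 (SE). Larval controls gave 9.56, 9.84, 9.05, 9.49 and 9.98 and larval Tkv wings 8.62, 9.65, 9.28, 8.85 and 8.57, lower on 4 of 5 slides. In the pupa its controls stood at 6.51, 6.86, 6.04, 5.51 and 6.07 and its Tkv arrays at 5.59, 5.66, 6.43, 7.01 and 5.88, with slide differences from -1.20 to 1.49. FBtr0086143 had the lowest pupal difference, -0.10 ± 0.27 (SE), from controls at 6.35, 5.75, 5.29, 5.77 and 5.17 and Tkv arrays at 5.54, 5.51, 6.61, 5.16 and 5.01.

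Within slides the members differed between genotypes in either direction. The median difference of the 17 in replicates 1 to 5 was 0.12, -0.19, 0.11, -0.20 and -0.13 in larval wings and 0.17, -0.36, 0.38, 0.81 and 0.38 in pupal wings. A difference of at least 0.6 in size, the limit set for the means, was met on single slides by 0 to 5 members in larval wings and by 6 to 12 in pupal wings. The share of all transcripts with such a difference on a single slide is not given here, so nothing about the members is read from these counts. For no member did the 5 Tkv and 5 control values stand apart without overlap, at either stage, where that held for 3.35% of all transcripts in larval wings and 4.46% in pupal wings. The limit on the means makes such a separation unlikely.

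**Figure D4:**
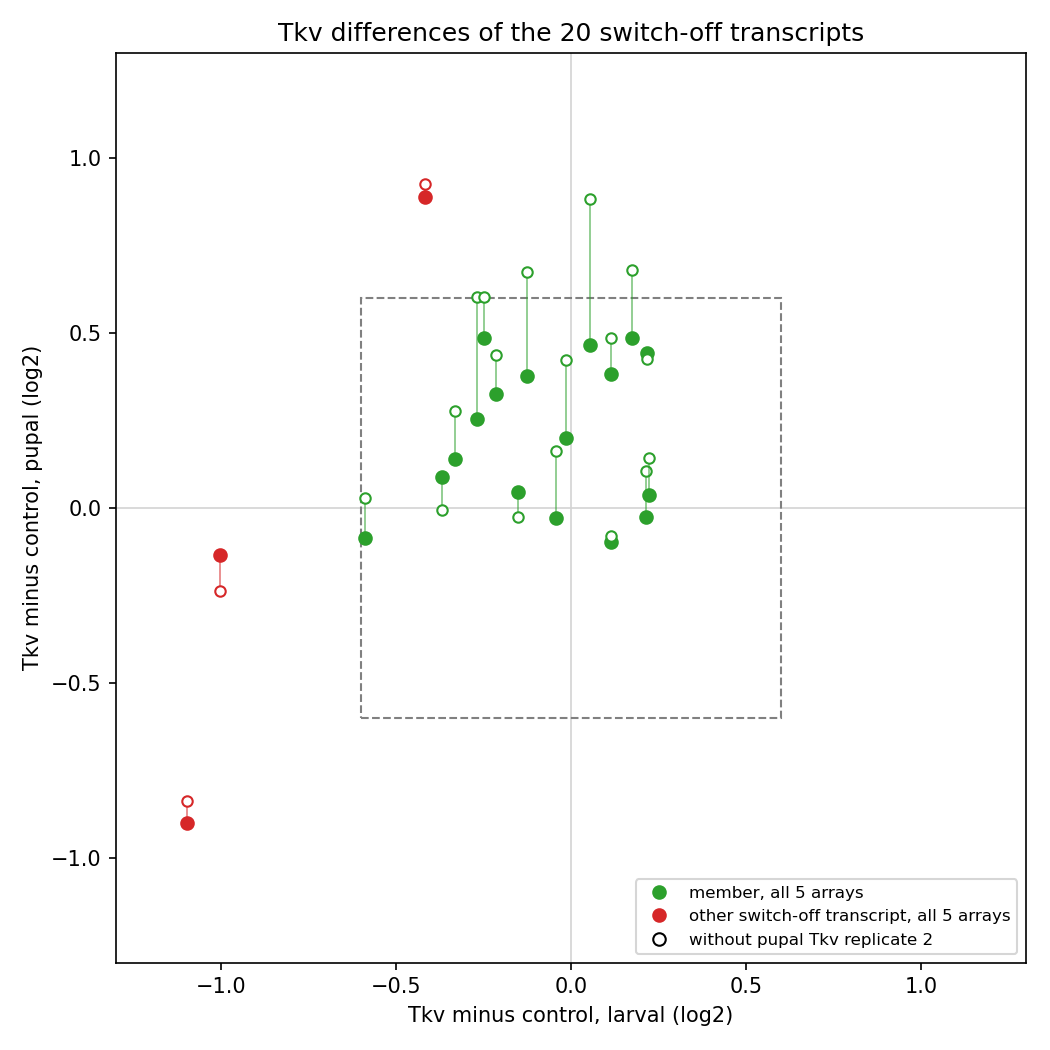
Mean Tkv minus control log2 difference in larval wings (horizontal axis) and pupal wings (vertical axis) for the 17 members (green) and the other 3 switch-off transcripts (red). Filled points use all 5 arrays per group, and open points leave out replicate 2 of the pupal Tkv wings. The dashed square marks 0.6 in each direction, and 5 open green points lie above it.

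Of the 20 switch-off transcripts 17 (85%) kept both Tkv differences under 0.6, and 90.3% of all transcripts did. A small Tkv difference was thus no more frequent among them than on the array as a whole. The 68 switch-on transcripts, with the levels of 9 and 7 exchanged between the stages, kept to it in 55 cases (80.9%).

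The 3 switch-off transcripts left out by that condition differed in how they failed it. FBtr0080276 was lower in Tkv wings at both stages, by -1.10 in larvae and -0.90 in pupae (log2). Its values went from 10.74, 10.16, 10.37, 10.87 and 11.08 in larval controls to 9.60, 9.94, 9.24, 8.85 and 10.09 in larval Tkv wings, which did not overlap. FBtr0076192 was lower by -1.0 in larvae, also without overlap, and by -0.13 in pupae. Larval groups did not overlap for 3.35% of all transcripts. For neither FBtr0080276 nor FBtr0076192 did limma call a Tkv difference at either stage. Adjusted p in larvae and pupae was 0.0582 and 0.0898 for FBtr0080276, and 0.121 and 0.930 for FBtr0076192. FBtr0076716 differed by -0.42 in larvae and was higher by 0.89 in pupae, where controls stood at 5.81, 6.39, 6.18, 5.62 and 5.53 and Tkv arrays at 6.39, 6.65, 7.57, 6.77 and 6.59. It fell 16.7-fold in control and 6.74-fold in Tkv wings. Its lowest pupal Tkv value equalled its highest pupal control value at 6.39, and its other pupal Tkv values lay above every pupal control. Its pupal difference was above 0 on 5 of 5 slides and was called by limma (adjusted p = 0.0124), where 3.16% of all transcripts passed. The size of that difference had set it apart from the members.

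Some features of the measurement itself were not used by the rule. Probe pairs per transcript numbered 5 for 13 members (76.5%) and 4 for the other 4, against 65.3% with 5 among all transcripts and 74.4% among the 5048 other dim ones. The deposited error column, whose unit is not stated, had member medians of 0.93 to 0.97 on larval arrays and 0.70 to 0.81 on pupal arrays, with no zero among the members.

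The profiles of the members over the 20 arrays were alike because the rule fixed their stage difference. FBtr0070265 correlated with the other 16 members at a Pearson value of 0.94 to 0.98, most with FBtr0087157, and FBtr0075665 did so at 0.94 to 0.98, most with FBtr0070265. Among all other transcripts on the array, members included, 360 and 378 reached at least 0.95 with them. After the group means were removed, the correlations with the other 16 ran from -0.36 to 0.41 (median 0.09) for FBtr0070265 and from -0.46 to 0.46 (median -0.18) for FBtr0075665. These points share arrays and slides, and the values are a description over 20 arrays.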

How the data were processed

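The authors deposited 1 file per array with a linear intensity per transcript from 3 to 5 probe pairs, and the submitters' processing notes name RMA. Settings and genome build are not stated in the labels. In the deposited series table the log2 values match the log2 of these intensities to within 5e-09. Log2 intensities of the 20 arrays were quantile-normalized together, which hides a shift common to all transcripts. No transcript was filtered. limma 3.58.1 in R 4.3.3 fitted 4 group means over 20 arrays (16 residual degrees of freedom, lmFit, contrasts.fit, eBayes, two-sided), with p adjusted by Benjamini and Hochberg over 15473 transcripts and a threshold of 0.05. Nothing says how animals of different samples were related, so p-values reflect only how these samples spread, which may be technical. For arrays, their number limits the precision.

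The members and lists were chosen with earlier results of these data known. Members given by ID were those with the largest falls, highest larval levels, most extreme Tkv differences, largest Tkv spread or values nearest a limit. The others are given in less detail. IDs were sought in RefSeq's Release 6 gene table, where 44 of 15473 occurred. Of 12 gene lists, 1 had a matched symbol, so none is described. No sequence could be linked to a member. Slide numbers were read from the image names. jsonlite 2.0.0, Python 3.11.15 and matplotlib 3.10.9 were used. Alternatives were other normalizations, limits, blocks, filters and left-out arrays.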

Additional observations from a re-analysis of the deposited data

Results flagged for a closer look

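In 5 of 84 groups of 5 arrays examined (20 switch-off transcripts and the median of the members, in 4 groups), 1 array stood well apart from the remaining 4 (chance alone does this in about 1 of 20 groups). All 5 belonged to members, which made up 17 of the 20 transcripts examined. Replicate 1 of the larval Tkv wings gave 3 of them, and over all transcripts its median absolute log2 difference from the other larval Tkv arrays was 0.303 to 0.36, against 0.184 to 0.255 among those 4. In replicate 1 of the larval Tkv wings FBtr0070265 was high at 11.20 (next 10.67), FBtr0084242 low at 9.96 (next 11.02) and FBtr0085079 low at 9.99 (next 10.54). FBtr0081507 was low at 5.05 in replicate 3 of the pupal Tkv wings (next 5.99), and FBtr0087157 low at 9.30 in replicate 4 of the larval controls (next 9.88).

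FBtr0076716, a switch-off transcript outside the members, had unequal Tkv differences at the 2 stages, pupal minus larval 1.31 ± 0.28 on the log2 scale (limma interaction, adjusted p = 0.0283), with a difference of -0.42 in larvae and 0.89 in pupae. Over all transcripts 0.679% were called for the interaction. The choice of switch-off transcripts by high larval and low pupal control values favours an interaction above 0, which 17 of the 20 had. The pupal difference had kept FBtr0076716 out of the members.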

How the results depend on the processing

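The number of members was 15 without further normalization (11 of the 17 among them) and 19 with median centring (13 of the 17). Levels of 10 and 6 left 1 member and 1 switch-off transcript. Levels of 8.5 and 7.5 gave 67 and 85, and limits on the group means gave 73 and 94. All of these switch-off transcripts fell in Tkv wings. Leaving out a replicate number, or a single pupal control or pupal Tkv array, gave 12 to 32 members and 20 to 43 switch-off transcripts, all of which fell in Tkv wings. In the same refits 6 to 16 members kept to both limits on all Tkv arrays, 5394 to 6417 transcripts were called between the stages of control wings (6279 with all arrays), and 0 members, chosen again each time, were called by limma for a Tkv difference or the interaction. With the 17 members kept as they were, limma called 0 to 3 of them for the pupal difference, 0 to 1 for the interaction and 0 for the larval difference. The 3 and the 1 came without replicate 2 of the pupal Tkv wings, where 3.16% and 0.692% of all transcripts were called. The fit without all arrays of replicate 2 gave 2 pupal calls, where 2.44% of all transcripts were called. The members were chosen on these differences, so these calls are no test of a response. The refits without a single array were added after the data had been seen. A difference limit of 1 added FBtr0076716, so that 1 member was called for the pupal difference and 1 for the interaction. With the replicate number as a block, 20 of 20 switch-off transcripts fell in Tkv wings, 0 members were called for a Tkv difference or the interaction, and 6661 transcripts were called for the control stage change. The block changed none of these calls on switch-off transcripts or members. Deviations of same-numbered samples, which share a slide, correlated at -0.19 to 0.29, over 0.1 in 13 of 30 pairs, and the own number correlated best in 30 of 60 comparisons with 5 numbers each. The slide followed the replicate number throughout, so the part of the slide itself in these correlations was not tested. The samples were not treated as paired. The number of arrays and the compression of dim values limit what can be seen in the pupa.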
